A study of Rattus norvegicus with 18 samples.

Results

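The interferon response genes described here are the transcripts that cells raise after interferon binds its receptor. They were followed in primary cultured inner medullary collecting duct cells, the epithelium that lines the last segment of the rat kidney tubule. The members were chosen by symbol from a list of 38 genes, and a feature of the array counted when the probe annotation gave it exactly 1 of these symbols. Of the 38 genes, 36 were measured, each by 1 feature, out of 14499 genes with such a feature. Parp14 and Xaf1 were not analysed here. The 18 arrays form 6 groups of 3. The groups are cells of the 300 mosmol/kg culture challenged at 600 mosmol/kg for 24 h with 5 µM cyclosporin A (600 challenge with cyclosporin A), the same without the drug (600 challenge), cells of the 600 mosmol/kg culture challenged at 900 mosmol/kg for 24 h with 5 µM cyclosporin A (900 challenge with cyclosporin A), the same without the drug (900 challenge), and the unchallenged 600 mosmol/kg culture (600 culture) and 300 mosmol/kg culture (300 culture). All are rat cells in primary culture from the renal inner medulla, and no strain, sex or age is given in the sources used here. The series text asks how each challenge, without or with cyclosporin A, differed from the culture it started in. The labels describe no group moved to fresh medium of its own osmolality, so the osmotic challenge cannot be told apart from the handling and the 24 h that came with it.

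Type I interferons bind a receptor whose kinases activate transcription factors, among them STAT2, which joins IRF9 in a complex on the interferon-stimulated response element upstream of target genes. Type II interferon has a receptor of its own and acts through another DNA element, the gamma-activated site. The targets include sensors of foreign nucleic acid, proteins that block viral replication, and the machinery that presents peptides on major histocompatibility complex class I. Collecting duct cells of the inner medulla live at a high and changing osmolality, and cyclosporin A inhibits calcineurin, the phosphatase that activates NFAT transcription factors.

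RefSeq's promoter table for the rat build GRCr8, with 250 bases before to 50 bases after each gene's start, held 28 of the 36 members. From those 28, the promoters of the 3 interferon regulatory factors and of the 3 other genes with the widest range of group means, Mx1, Oas1b and Oasl, are printed to show where the letters of those 2 response elements lie. Mx2 and Ifit1, whose ranges were also wide, are not among the 28. The first pattern, GAAA then any 2 bases then GAAA, stands for the core of the interferon-stimulated response element and was searched on both strands, so also as TTTC, any 2 bases, TTTC. It occurred in 18 of the 28 member promoters (64.3%) and in 1034 of all 27457 promoters of the table (3.77%). The pattern TTCNNNGAA, which reads the same on both strands, stands for the gamma-activated site. It occurred in 8 of the 28 (28.6%), which were Irf1, Irf9, Oas1a, Oas1b, Bst2, Ifi47, Igtp and Ifi44l, and in 2382 of all promoters (8.68%). The 2 patterns overlapped in 1 member, Bst2. Capitals below mark the matches, and a match is a description of letters, not a bound site. Irf7 (chr1:205799974-205800273, minus strand) holds 1 match of the first pattern, on the reverse strand, that starts 69 bases before the start of transcription. Oas1b (chr12:41395803-41396102, minus strand) holds 2 overlapping matches of the first pattern, 59 and 53 bases before the start, and 1 TTCNNNGAA match 213 bases before it. Irf1 (chr10:38417685-38417984, plus strand) and Irf9 (chr15:33065586-33065885, plus strand) each hold 1 TTCNNNGAA match, 142 and 99 bases before their starts. Mx1 (chr11:50294557-50294856, minus strand) and Oasl (chr12:47356243-47356542, minus strand) hold neither pattern in this window.
Irf7: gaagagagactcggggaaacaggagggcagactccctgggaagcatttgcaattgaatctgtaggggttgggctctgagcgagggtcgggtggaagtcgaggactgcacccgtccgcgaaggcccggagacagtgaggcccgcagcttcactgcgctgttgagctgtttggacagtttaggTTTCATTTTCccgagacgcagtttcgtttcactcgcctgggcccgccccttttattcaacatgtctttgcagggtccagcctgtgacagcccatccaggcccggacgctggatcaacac
Oas1b: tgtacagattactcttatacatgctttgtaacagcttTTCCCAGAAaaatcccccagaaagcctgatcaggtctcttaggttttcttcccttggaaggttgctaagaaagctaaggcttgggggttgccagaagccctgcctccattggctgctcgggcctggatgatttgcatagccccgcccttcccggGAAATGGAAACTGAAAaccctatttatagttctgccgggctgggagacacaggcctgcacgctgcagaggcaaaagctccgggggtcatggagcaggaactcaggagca
Irf1: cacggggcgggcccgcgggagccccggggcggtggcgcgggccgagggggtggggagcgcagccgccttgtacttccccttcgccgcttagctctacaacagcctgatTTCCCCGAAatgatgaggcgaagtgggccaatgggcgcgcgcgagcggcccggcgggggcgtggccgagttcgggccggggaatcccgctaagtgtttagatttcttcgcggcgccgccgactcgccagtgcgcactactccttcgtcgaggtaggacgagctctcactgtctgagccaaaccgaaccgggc
Irf9: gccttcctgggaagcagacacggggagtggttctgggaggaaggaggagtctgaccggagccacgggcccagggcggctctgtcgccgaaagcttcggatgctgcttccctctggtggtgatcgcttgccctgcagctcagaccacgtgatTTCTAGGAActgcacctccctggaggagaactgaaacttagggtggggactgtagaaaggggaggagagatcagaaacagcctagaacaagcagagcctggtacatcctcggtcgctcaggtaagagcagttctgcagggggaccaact
Mx1: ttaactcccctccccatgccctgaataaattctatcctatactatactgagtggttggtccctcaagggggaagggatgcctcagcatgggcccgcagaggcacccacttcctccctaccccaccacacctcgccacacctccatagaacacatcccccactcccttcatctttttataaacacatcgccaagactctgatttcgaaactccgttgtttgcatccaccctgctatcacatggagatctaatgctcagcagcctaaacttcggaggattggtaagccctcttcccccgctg
Oasl: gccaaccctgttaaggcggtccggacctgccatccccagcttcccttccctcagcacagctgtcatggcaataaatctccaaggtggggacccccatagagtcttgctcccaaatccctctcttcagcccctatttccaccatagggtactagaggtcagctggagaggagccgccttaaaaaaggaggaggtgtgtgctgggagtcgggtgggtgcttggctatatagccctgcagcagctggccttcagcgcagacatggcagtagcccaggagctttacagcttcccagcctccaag

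The values are expression levels per feature on a log scale whose base is not stated, so 1 log unit corresponds to 2-fold under base 2 and to 2.72-fold under the natural log. Array medians lay between 3.56 and 3.65 and array lower quartiles between 2.48 and 2.70. Signal over background is not given, and the number of arrays limits the precision. Differences were tested with limma over all 28328 features, and a gene is called higher or lower where the adjusted p was under 0.05. Separate animals or cultures behind the 3 arrays of a group are not recorded in the labels. The p-values therefore rest on array-to-array spread alone, and that spread may be technical. Where groups are said below not to overlap, this describes their 3 arrays each. The share of all features that separate in this way was not counted, so such a separation adds no weight to a call. The groups also differed in cell markers. Over 11 collecting duct markers the mean level was 4.38 to 4.46 in the 600 challenge with cyclosporin A, 4.55 to 4.60 in the 600 challenge, 6.23 to 6.30 in the 900 challenge with cyclosporin A, 6.33 to 6.40 in the 900 challenge, 6.08 to 6.20 in the 600 culture and 4.55 to 4.62 in the 300 culture. The defining collecting duct marker Aqp2, the vasopressin-regulated water channel, averaged 6.50 in the 600 culture and 1.61 in the 300 culture, where it lay below the lower quartile of every array. Over 14 macrophage and leukocyte markers the mean level was 4.38 to 4.61 in the 600 challenge with cyclosporin A, 4.54 to 4.67 in the 600 challenge, 3.62 to 3.65 in the 900 challenge with cyclosporin A, 3.59 to 3.63 in the 900 challenge, 4.66 to 4.77 in the 600 culture and 5.81 to 5.89 in the 300 culture. None of these 14 had a group mean of 0, which by itself does not show that their transcripts were present. Of the defining leukocyte markers, Ptprc averaged 3.63 in the 900 challenge, 4.50 in the 600 culture and 4.69 in the 300 culture, and Tyrobp averaged 2.06 in the 900 challenge, 3.21 in the 600 culture and 4.65 in the 300 culture. In the 900 challenge Tyrobp lay below the lower quartile of every array. Of 8 fibroblast markers, 6 were lower in the 900 challenge than in the 600 culture, 5 were lower in the 600 challenge than in the 300 culture and 4 were lower in the 600 than the 300 culture, and none was higher in these comparisons. Of 5 endothelium markers, 1 was higher and 2 lower in the 900 challenge than in the 600 culture, 1 was higher and 4 lower in the 600 challenge than in the 300 culture, and 3 were higher and 1 lower in the 600 than the 300 culture. The 7 measured T, B and NK cell markers had 0 calls in every comparison.

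**Figure D1:**
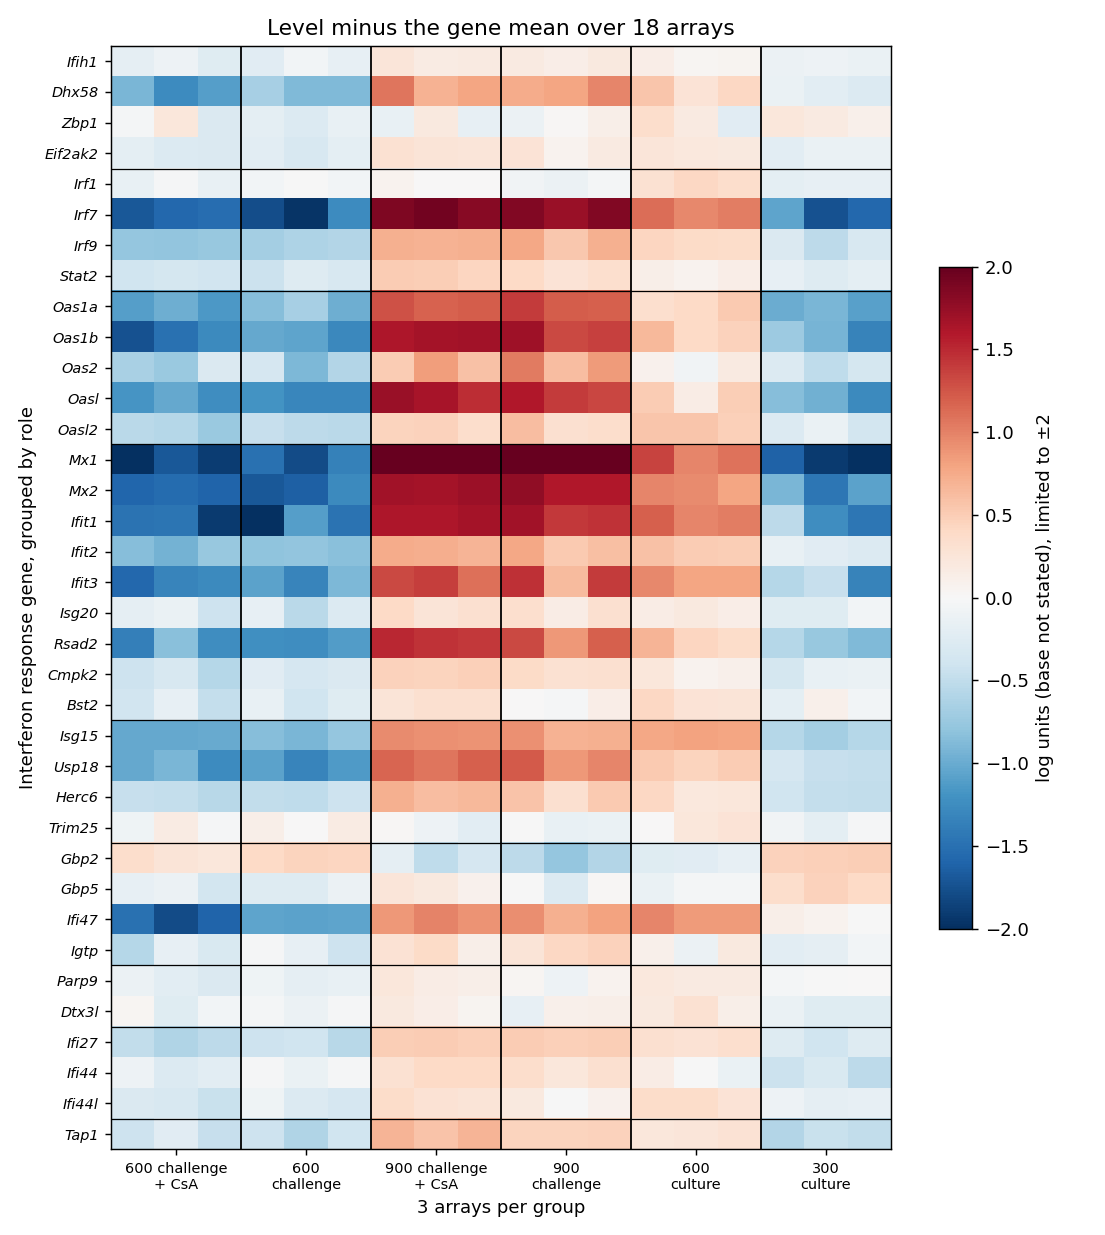
Each row is 1 of the 36 measured interferon response genes, grouped by role from sensors at the top to Tap1 at the bottom, and each column is 1 array. Colour gives the level minus that gene's mean over the 18 arrays in log units, limited to 2 units either way. Most rows are red in the 900 challenges and the 600 culture and blue in the 600 challenges and the 300 culture, and Gbp2 runs the other way.

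The culture comparison asks how cells kept at 600 mosmol/kg differ from cells kept at 300 mosmol/kg. The labels do not say whether both cultures came from the same cell preparations. Culture osmolality therefore cannot be told apart from a difference between preparations. Of the 36 interferon response genes, 30 were higher and 2 lower in the 600 culture, whereas 8.33% of all features were called higher and 8.84% lower. The median difference was 0.62 log units over the members and 0.00 over all features. The 4 with the largest difference were the antiviral GTPases Mx1 and Mx2, the transcription factor Irf7 and the RNA-binding effector Ifit1. Gbp2 and Gbp5, guanylate-binding proteins of the gamma interferon response, were the 2 lower members. Collecting duct markers moved with these genes, 7 of 11 being higher and 2 lower. Macrophage and leukocyte markers moved the other way, 13 of 14 being lower, and the part of either in the result was not tested. In these bulk samples, fewer cells of a type and less RNA per cell cannot be told apart.

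Among the transcription factors, all 4 measured members were higher in the 600 culture. Irf7, which drives transcription of the interferon genes themselves, read 5.41, 5.26 and 5.32 in the 600 culture, against 3.23, 2.55 and 2.73 in the 300 culture. The lowest 600 array lay over 2 log units above the highest 300 array, and the difference was 2.49 ± 0.17 (SE, adjusted p = 5.35e-08). Under base 2 that is 5.62-fold and under the natural log 12.1-fold. Irf9, the DNA-binding subunit of the type I complex, read 5.86, 5.82 and 5.80 in the 600 culture, against 5.14, 4.90 and 5.11 in the 300 culture. Its partner Stat2 read 5.96, 5.90 and 5.97 in the 600 culture, against 5.67, 5.58 and 5.64 in the 300 culture. Irf1, an early factor of the gamma interferon response, read 6.10, 6.21 and 6.15 in the 600 culture, against 5.60, 5.64 and 5.63 in the 300 culture. For none of these 4 genes did the groups overlap, and the differences of Irf9, Stat2 and Irf1 were 0.78, 0.31 and 0.53 log units (adjusted p = 8.49e-07, 0.000579 and 1.23e-06).

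All 9 antiviral effectors were higher in the 600 culture. Mx1, a dynamin-like GTPase that traps viral nucleocapsids, read 6.36, 5.98 and 6.08 in the 600 culture, against 3.39, 3.09 and 2.44 in the 300 culture. Its difference of 3.17 ± 0.24 log units (SE, adjusted p = 1.78e-07) was the largest of any member, and the 300 arrays were spread over nearly 1 log unit. Mx2, its paralogue, read 6.56, 6.53 and 6.37 in the 600 culture, against 4.67, 4.14 and 4.52 in the 300 culture, a difference of 2.04 ± 0.12 (adjusted p = 1.81e-08). Ifit1, which binds foreign RNA, read 5.38, 5.16 and 5.21 in the 600 culture, against 3.66, 2.94 and 2.74 in the 300 culture, a difference of 2.14 ± 0.23 (adjusted p = 7.45e-06). The groups did not overlap for any of the 3. Rsad2, known as viperin, read 5.25, 4.997 and 4.93 in the 600 culture, against 4.001, 3.81 and 3.69 in the 300 culture, a difference of 1.22 ± 0.14 (adjusted p = 1.35e-05). The other 5 effectors, Ifit2, Ifit3, the exonuclease Isg20, the nucleotide kinase Cmpk2 and the virion tether Bst2, differed by 0.74, 1.63, 0.33, 0.34 and 0.36 log units. How far probes of near-identical relatives such as Mx1 and Mx2, the Ifit genes, or Oas1a and Oas1b share transcripts was not analysed here.

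The oligoadenylate synthetase family is named for enzymes that make a second messenger that activates RNase L. Enzyme activity was not measured here, and membership of the family does not show it. Of the 5 family members measured, 4 were higher in the 600 culture. Oas1b read 4.29, 4.04 and 4.10 in the 600 culture, against 2.92, 2.70 and 2.30 in the 300 culture, a difference of 1.51 ± 0.15 (SE, adjusted p = 4.15e-06). Oas1a read 4.85, 4.93 and 5.04 in the 600 culture, against 3.53, 3.61 and 3.44 in the 300 culture, a difference of 1.41 ± 0.09 (adjusted p = 1.9e-08). Oasl read 4.43, 4.06 and 4.40 in the 600 culture, against 3.06, 2.95 and 2.65 in the 300 culture, a difference of 1.41 ± 0.12 (adjusted p = 6.31e-07). None of these pairs of groups overlapped. Oasl2 differed by 0.78. Oas2 averaged 2.50 ± 0.13 in the 600 culture and 2.06 ± 0.12 in the 300 culture (SD, n = 3 each), near or below the lower quartile of the arrays, and its difference did not pass the threshold (adjusted p = 0.0686).

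In the ISG15 system, Isg15, a ubiquitin-like modifier, read 6.32, 6.35 and 6.33 in the 600 culture, against 4.98, 4.87 and 4.97 in the 300 culture. The 3 arrays of the 600 culture lay close together, far above those of the 300 culture, and the difference of 1.39 ± 0.06 (SE) had an adjusted p of 3.71e-10. Usp18, which removes ISG15 from proteins and dampens the type I receptor, read 5.29, 5.21 and 5.27 in the 600 culture, against 4.43, 4.30 and 4.29 in the 300 culture, a difference of 0.92 ± 0.10. Herc6, an ISG15 ligase in the mouse, was higher by 0.74, and the ubiquitin ligase Trim25 differed by 0.26 without passing the threshold (adjusted p = 0.057). Of the sensors, Dhx58, a helicase that regulates RNA sensing, was higher by 0.62, the RNA-activated kinase Eif2ak2 by 0.38 and the RNA sensor Ifih1 by 0.20. Zbp1, a sensor of Z-form nucleic acid, had group means below the lower quartile of every array throughout and no call.

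The GTPases of the gamma interferon response divided. Ifi47, an immunity-related GTPase, read 6.16, 6.04 and 6.04 in the 600 culture, against 5.30, 5.26 and 5.17 in the 300 culture, a difference of 0.84 ± 0.07 (SE, adjusted p = 1.18e-06). Gbp2 read 5.55, 5.57 and 5.63 in the 600 culture, against 6.25, 6.27 and 6.29 in the 300 culture, a difference of -0.69 ± 0.08 (adjusted p = 1.26e-05). Gbp5 read 5.37, 5.47 and 5.47 in the 600 culture, against 5.86, 5.97 and 5.90 in the 300 culture, a difference of -0.47 ± 0.08 (adjusted p = 0.000937). The groups did not overlap for these 3 genes, with Ifi47 higher and Gbp2 and Gbp5 lower in the 600 culture. Igtp, another immunity-related GTPase, differed by 0.21 (adjusted p = 0.306). Tap1, which pumps peptides into the endoplasmic reticulum for class I presentation, read 5.63, 5.64 and 5.68 in the 600 culture, against 4.80, 4.94 and 4.90 in the 300 culture, a difference of 0.77 ± 0.07 (adjusted p = 1.09e-06). The remaining members were all higher. The mono-ADP-ribosyltransferase Parp9 and its ligase partner Dtx3l differed by 0.19 and 0.41, and the interferon-induced Ifi27, Ifi44 and Ifi44l by 0.62, 0.42 and 0.49. With each of the 6 arrays left out in turn, the call of Parp9 was lost every time, that of Isg20 in 5 fits, and those of Ifih1 and Bst2 in 2 each.

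**Figure D2:**
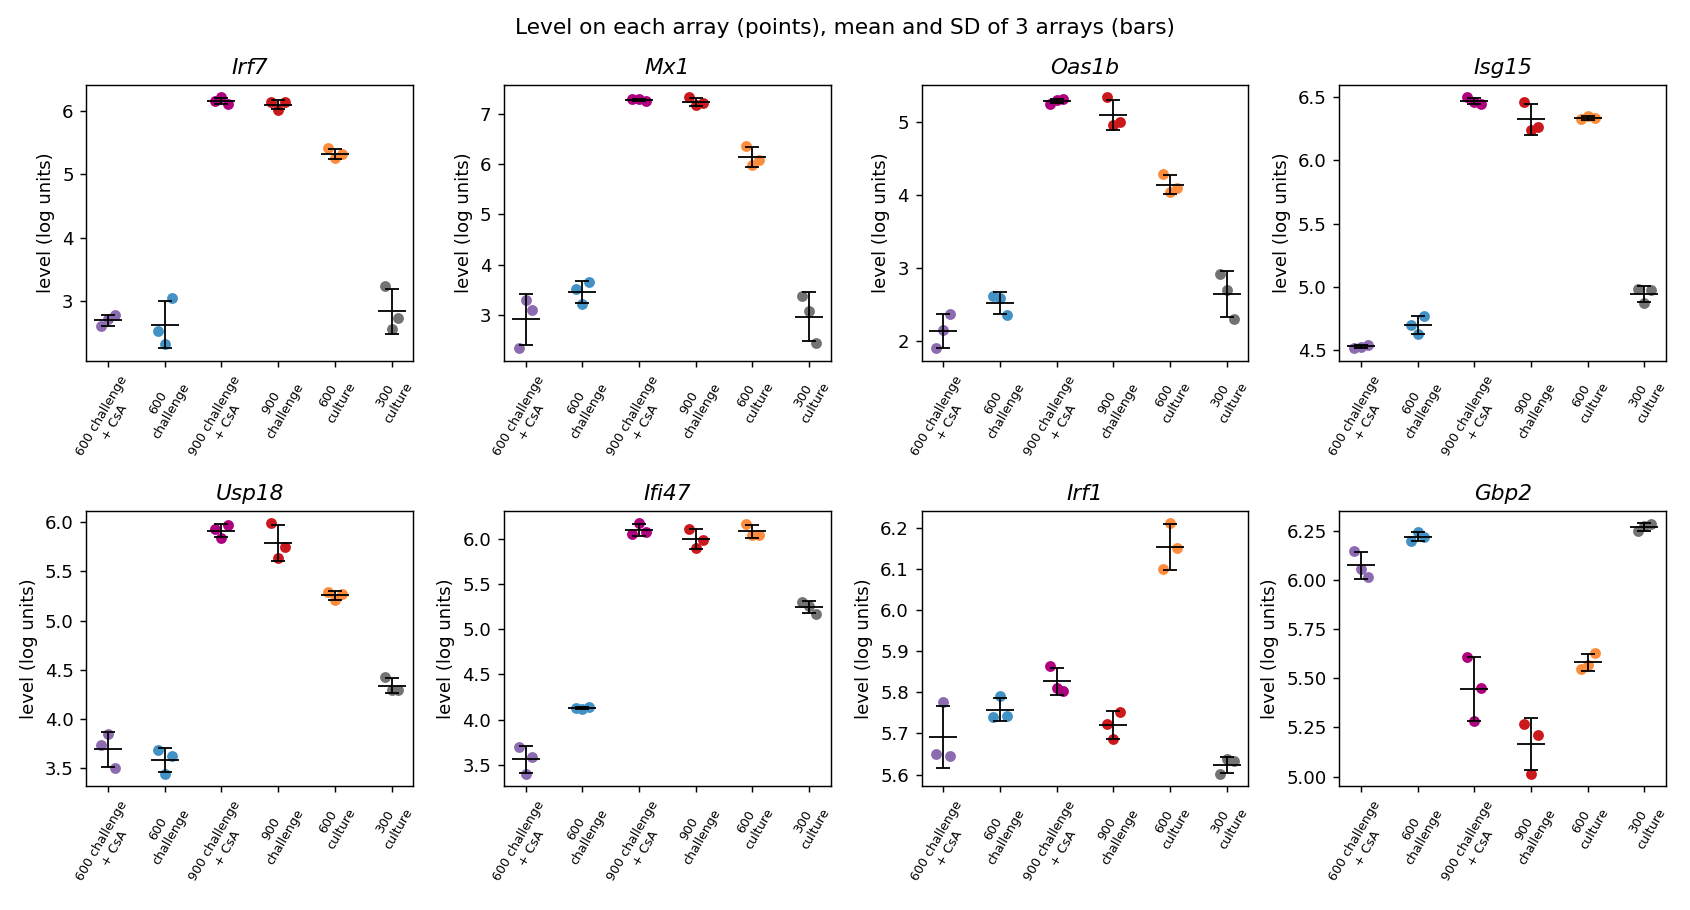
Level on each array in log units for 8 interferon response genes in the 6 groups, with the mean and SD of the 3 arrays of a group as a line and bars. Irf7, Mx1, Oas1b and Usp18 are highest in the 900 challenges, Isg15 and Ifi47 stand at like levels in the 900 challenges and the 600 culture, Irf1 is highest in the 600 culture, and Gbp2 is lowest in the 900 challenge.

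The 900 challenge asks how the 600 culture responded to a further osmotic step. In the 900 challenge 14 interferon response genes were higher and 5 lower than in the 600 culture, whereas 6.43% of all features were called higher and 11% lower. The median difference was 0.19 log units over the members and -0.01 over all features. This comparison shares its 600 culture arrays with the culture comparison. Other scalings of the arrays gave another split, with 16 higher and 2 lower after centring each array on its median and 17 higher and 3 lower after quantile normalization. Bst2 and Parp9 were no longer called lower under either scaling, and Ifi44l was lost under centring alone. Of the markers, 5 of 11 for the collecting duct were higher and 3 lower, and 12 of 14 macrophage and leukocyte markers were lower. Their part in the result was not tested.

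The largest rises were in Mx1 and members of the oligoadenylate synthetase family. Mx1 read 7.32, 7.17 and 7.21 in the 900 challenge, against 6.36, 5.98 and 6.08 in the 600 culture, a difference of 1.10 ± 0.24 (SE, adjusted p = 0.00466). Oasl read 5.51, 5.32 and 5.25 in the 900 challenge, against 4.43, 4.06 and 4.40 in the 600 culture, a difference of 1.06 ± 0.12 (adjusted p = 1.73e-05). Oas1b read 5.34, 4.96 and 5.01 in the 900 challenge, against 4.29, 4.04 and 4.10 in the 600 culture, a difference of 0.96 ± 0.15 (adjusted p = 0.000427). The 900 arrays all lay above the 600 culture arrays for these genes. Oas1a read 5.91, 5.73 and 5.71 in the 900 challenge, against 4.85, 4.93 and 5.04 in the 600 culture, a difference of 0.84 ± 0.09 (adjusted p = 7.5e-06). Oas2 averaged 3.28 ± 0.21 in the 900 challenge and 2.50 ± 0.13 in the 600 culture (SD, n = 3 each) and was called higher (adjusted p = 0.00282). The fifth, Oasl2, differed by -0.10 and was not called.

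Irf7 rose again, reading 6.14, 6.02 and 6.14 in the 900 challenge, against 5.41, 5.26 and 5.32 in the 600 culture, a difference of 0.77 ± 0.17 (SE, adjusted p = 0.00458). Irf9 and Stat2 were also higher, by 0.28 and 0.23. Both calls were lost in a limma fit of only the groups compared (adjusted p = 0.084 and 0.0802). That fit also lost the calls of Dhx58, Bst2, Parp9, Ifi27, Ifi44 and Ifi44l. Irf1 fell, reading 5.72, 5.69 and 5.75 in the 900 challenge, against 6.10, 6.21 and 6.15 in the 600 culture, a difference of -0.43 ± 0.05 (adjusted p = 1.51e-05). The groups did not overlap for any of the 4 transcription factors. Mx2, Rsad2, Usp18 and Dhx58 were higher by 0.76, 0.64, 0.53 and 0.42, and Ifi27 and Ifi44 by 0.17 and 0.30. The lower members beside Irf1 were Gbp2, at 5.16 ± 0.13 in the 900 challenge and 5.58 ± 0.04 in the 600 culture (SD, n = 3 each), Bst2, Parp9 and Ifi44l, with differences of -0.42, -0.28, -0.18 and -0.24. With each of the 6 arrays left out in turn, the calls of Bst2 and Parp9 were lost in 5 fits each and that of Ifi44l in 4, and among the higher members Ifi27 was lost every time, Dhx58 in 2 fits and Ifi44 in 1. Isg15 and Ifi47, both far higher in the 600 than the 300 culture, differed by -0.01 and -0.08 log units here and were not called.

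The 900 challenge with cyclosporin A was set against the same 600 culture arrays, so its calls are not independent of those above. It had 17 members higher and 1 lower, with 7.27% and 10.5% of all features called. The median difference was 0.28 log units over the members. Rsad2 read 6.08, 6.01 and 5.98 in the 900 challenge with cyclosporin A, against 5.25, 4.997 and 4.93 in the 600 culture, a difference of 0.97 ± 0.14 (SE, adjusted p = 0.000173). Oasl read 5.63, 5.56 and 5.39 in the 900 challenge with cyclosporin A, against 4.43, 4.06 and 4.40 in the 600 culture, a difference of 1.23 ± 0.12 (adjusted p = 4.13e-06). Oas1b read 5.25, 5.30 and 5.32 in the 900 challenge with cyclosporin A, against 4.29, 4.04 and 4.10 in the 600 culture, a difference of 1.15 ± 0.15 (adjusted p = 8.67e-05). For these genes every array with the drug lay above every 600 culture array. Mx1 read 7.29, 7.29 and 7.26 in the 900 challenge with cyclosporin A, against 6.36, 5.98 and 6.08 in the 600 culture, a difference of 1.14 ± 0.24 (adjusted p = 0.00346). Cmpk2, Herc6 and Tap1 were called higher here, with differences of 0.33, 0.37 and 0.39 log units. Without the drug their differences of 0.21, 0.19 and 0.20 did not pass the threshold (adjusted p = 0.0568, 0.0836 and 0.0646). The direct test of the drug at the 900 challenge called 0 members. Against the 600 culture, Irf1 was the lower member (-0.33, adjusted p = 0.000196). With each of the 6 arrays left out in turn, the call of Ifi27 (0.18) was lost every time and those of Dhx58 (0.44) and Oas2 (0.58) in 2 fits each.

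The 600 challenge asks the same of the 300 culture, and here more members fell than rose. In the 600 challenge 1 interferon response gene was higher and 9 were lower than in the 300 culture, whereas 6.36% of all features were called higher and 8.07% lower. The median difference was -0.15 log units over the members and 0.02 over all features. The count fell to 6 without replicate 1 of the 300 culture, and likewise to 6 without replicate 2 of the 600 challenge. Of the markers, 12 of 14 for macrophages and leukocytes were lower, and 1 of 11 for the collecting duct was higher and 3 were lower. Their part in the result was not tested.

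Ifi47 fell most, reading 4.13, 4.12 and 4.14 in the 600 challenge, against 5.30, 5.26 and 5.17 in the 300 culture. Every challenged array lay over 1 log unit below every 300 array, and the difference was -1.11 ± 0.07 (SE, adjusted p = 1.41e-07). Usp18 read 3.69, 3.45 and 3.62 in the 600 challenge, against 4.43, 4.30 and 4.29 in the 300 culture, a difference of -0.75 ± 0.10 (adjusted p = 9.67e-05). Gbp5 read 5.24, 5.24 and 5.39 in the 600 challenge, against 5.86, 5.97 and 5.90 in the 300 culture, a difference of -0.62 ± 0.08 (adjusted p = 0.000133). In neither gene did the groups overlap. Dhx58 read 2.80, 2.58 and 2.58 in the 600 challenge, against 3.33, 3.26 and 3.19 in the 300 culture, a difference of -0.61 ± 0.11 (adjusted p = 0.00184). Ifit2 read 4.20, 4.22 and 4.18 in the 600 challenge, against 4.85, 4.79 and 4.73 in the 300 culture, a difference of -0.59 ± 0.06 (adjusted p = 1.47e-05). The other lower members were Rsad2, Mx2, Irf9 and Isg15, with differences of -0.46, -0.40, -0.24 and -0.24. Mx2 overlapped between the groups on single arrays, and its adjusted p was 0.046. With each of the 6 arrays left out in turn, the call of Rsad2 was lost in 5 fits, those of Mx2 and Irf9 in 4 each and that of Isg15 in 2. Ifi44 was the higher member, by 0.37 ± 0.08 (adjusted p = 0.00409). Mx1 and Irf7, the leaders of the culture comparison, differed by 0.49 and -0.21 log units and were not called (adjusted p = 0.216 and 0.488).

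The 600 challenge with cyclosporin A, set against the same 300 culture arrays, had 0 members higher and 14 lower, with 6.21% and 7.85% of all features called. Ifi47 read 3.70, 3.40 and 3.58 in the 600 challenge with cyclosporin A, against 5.30, 5.26 and 5.17 in the 300 culture, a difference of -1.68 ± 0.07 (SE, adjusted p = 2.99e-09). Dhx58 read 2.56, 2.21 and 2.36 in the 600 challenge with cyclosporin A, against 3.33, 3.26 and 3.19 in the 300 culture, a difference of -0.89 ± 0.11 (adjusted p = 7.51e-05). Usp18 read 3.73, 3.85 and 3.50 in the 600 challenge with cyclosporin A, against 4.43, 4.30 and 4.29 in the 300 culture, a difference of -0.65 ± 0.10 (adjusted p = 0.000369). None of these 3 genes overlapped between the groups. Ifit2 read 4.16, 4.06 and 4.25 in the 600 challenge with cyclosporin A, against 4.85, 4.79 and 4.73 in the 300 culture, a difference of -0.63 ± 0.06 (adjusted p = 7.74e-06). Gbp5, Isg15 and Irf9 were lower too, with differences of -0.62, -0.41 and -0.39. With each of the 6 arrays left out in turn, the call of Stat2 (-0.17) was lost every time, those of Mx2 (-0.43) and Parp9 (-0.20) in 5 fits each and those of Oas1b (-0.50) and Bst2 (-0.29) in 4 each.

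**Figure D3:**
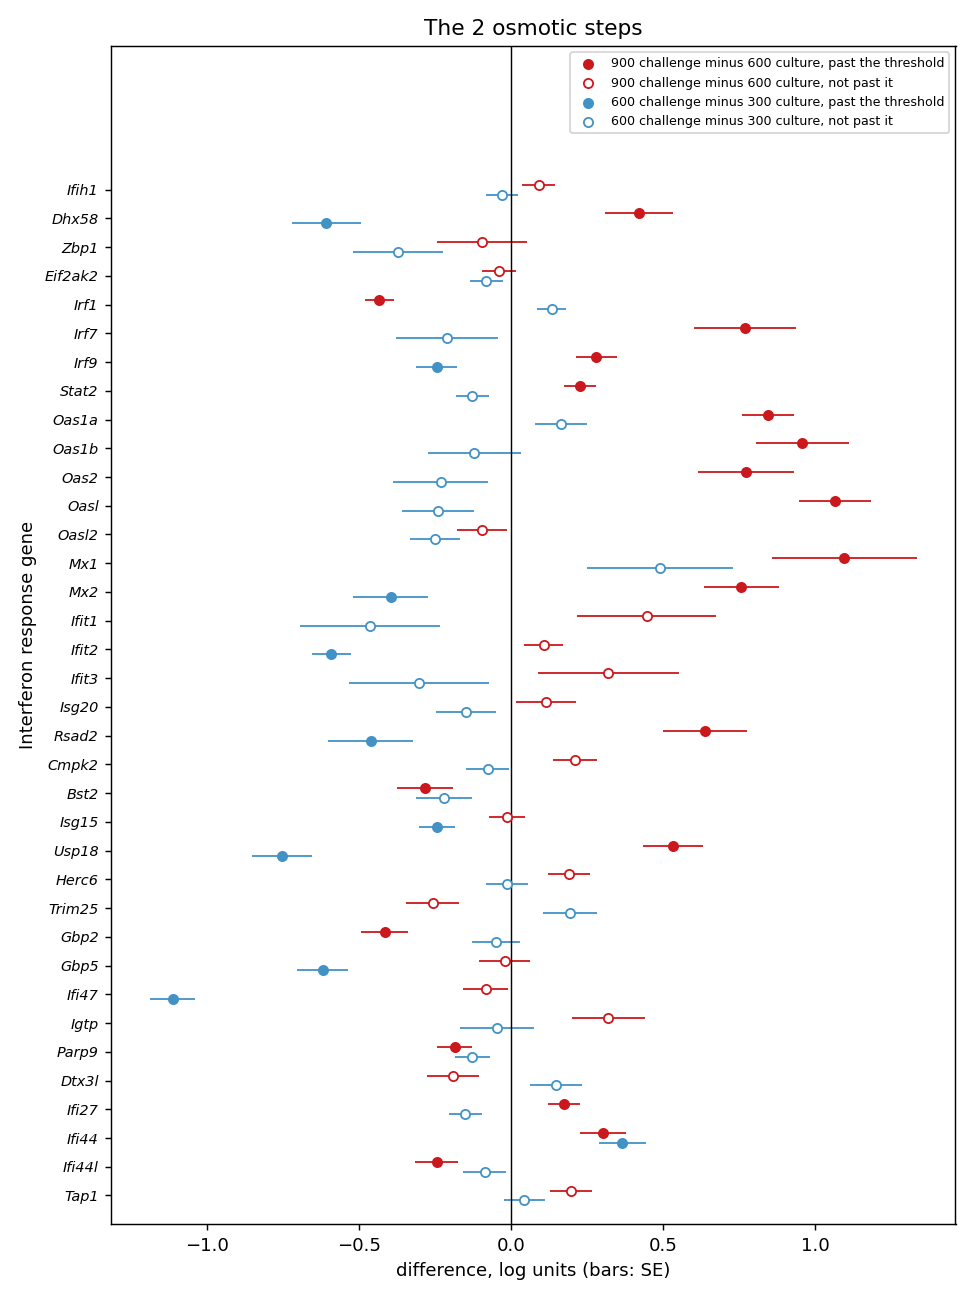
Difference of each interferon response gene in log units, with its SE as a bar, for the 900 challenge minus the 600 culture (red) and the 600 challenge minus the 300 culture (blue). Filled points passed the threshold in limma. Dhx58, Irf9, Mx2, Rsad2 and Usp18 have a filled red point above 0 and a filled blue point below it.

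Whether the 2 osmotic steps differed was tested directly, as the step to 900 minus the step to 600. Among the 36 members the difference was called positive in 15 and called negative in 2. Of all features 7.58% were called, 3.52% positive and 4.06% negative. Called or not, the difference between the steps was above 0 in 28 members and below 0 in 8, and the share of all features with each sign was not counted. Its median was 0.34 log units over the members and -0.03 over all features. It was largest in Oasl (1.31 ± 0.17, adjusted p = 0.000265) and Usp18 (1.28 ± 0.14, adjusted p = 6.26e-05). In Oasl the step to 900 was 1.06 and the step to 600 was -0.24, and in Usp18 the step to 900 was 0.53 and the step to 600 was -0.75. The transcription factors Irf7, Irf9 and Stat2 had positive differences of 0.98, 0.53 and 0.35, and Irf1 a negative one of -0.57 ± 0.07 (adjusted p = 0.000135). Oasl and Irf7 averaged 2.65 and 2.63 in the 600 challenge, near the lower quartile of the arrays. A larger fall may not be measurable there. For Ifi47, with a difference of 1.03, the step to 900 was -0.08 and the step to 600 was -1.11. Mx1 had a step to 900 of 1.10 and a step to 600 of 0.49, and their difference of 0.61 was not called (adjusted p = 0.345). With each of the 12 arrays left out in turn, the call of Trim25 (-0.45) was lost in 9 fits and those of Irf7 and Ifi27 in 3 each.

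Cells brought to 600 mosmol/kg for 24 h were next compared with cells cultured at 600 mosmol/kg, which are at the same osmolality. The challenged cells came from the 300 culture, so time at 600 mosmol/kg cannot be told apart from the culture of origin. In the 600 challenge 30 members were lower and 1 higher than in the 600 culture, whereas 8.74% of all features were called lower and 7.69% higher. The median difference was -0.74 log units over the members and 0.02 over all features. This comparison shares its 600 culture arrays with the culture comparison and its challenge arrays with the 600 step. Irf7 read 2.52, 2.33 and 3.04 in the 600 challenge, against 5.41, 5.26 and 5.32 in the 600 culture, a difference of -2.70 ± 0.17 (SE, adjusted p = 2.65e-08). Mx1 read 3.51, 3.21 and 3.65 in the 600 challenge, against 6.36, 5.98 and 6.08 in the 600 culture, a difference of -2.68 ± 0.24 (adjusted p = 1.3e-06). For both genes the 600 challenge overlapped the 300 culture and lay apart from the 600 culture. Ifit1 read 2.17, 3.07 and 2.70 in the 600 challenge, against 5.38, 5.16 and 5.21 in the 600 culture, a difference of -2.60 ± 0.23 (adjusted p = 1.15e-06). Mx2 read 3.88, 3.95 and 4.31 in the 600 challenge, against 6.56, 6.53 and 6.37 in the 600 culture, a difference of -2.44 ± 0.12 (adjusted p = 3.24e-09). These groups did not overlap either. Ifi47 and Isg15 differed by -1.95 and -1.64. Dtx3l was called lower (-0.27), and with each of the 6 arrays left out in turn that call was lost in 5 fits. Gbp2 was the higher member, at 6.20, 6.24 and 6.22 in the 600 challenge, against 5.55, 5.57 and 5.63 in the 600 culture (0.64 ± 0.08, adjusted p = 3.07e-05). Of the markers, 8 of 11 for the collecting duct were lower, and 3 of 14 for macrophages and leukocytes were higher and 4 lower. Lower levels were also found in 4 of 5 endothelium markers and 5 of 8 fibroblast markers, with 0 and 1 higher. The part of these markers in the result was not tested.

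Over the 6 groups, 26 of the 36 members had their highest mean in a 900 challenge, 7 in the 600 culture and 3 in the 300 culture or a 600 challenge. Zbp1 and Igtp were called in none of the 10 comparisons. The mean level over the 36 members was 4.11 to 4.19 in the 600 challenge with cyclosporin A, 4.19 to 4.26 in the 600 challenge, 5.52 to 5.58 in the 900 challenge with cyclosporin A, 5.36 to 5.54 in the 900 challenge, 5.19 to 5.28 in the 600 culture and 4.36 to 4.50 in the 300 culture. The 6 groups lay in the order 900 challenges, 600 culture, 300 culture, 600 challenges, and the ranges of the 900 challenges with and without the drug overlapped, as did those of the 600 challenges. Every group begun from the 600 culture thus lay above every group begun from the 300 culture. In this order, osmolality cannot be told apart from the culture of origin.

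**Figure D4:**
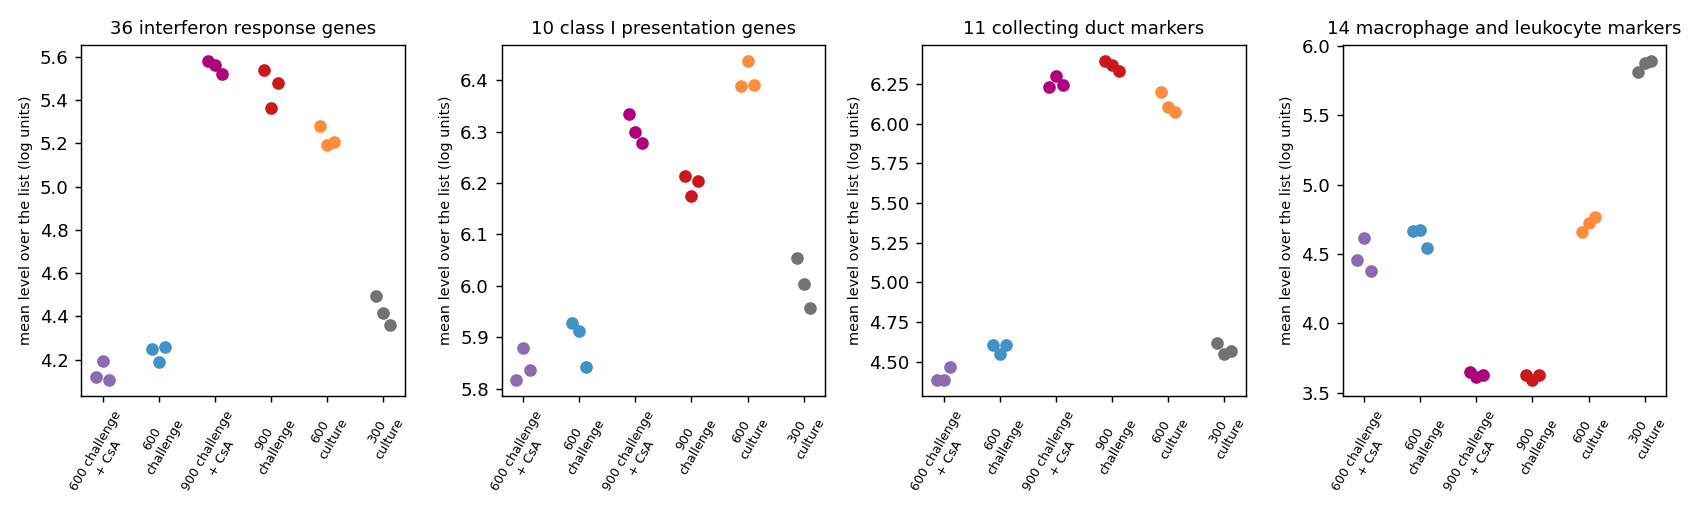
Mean level per array, in log units, over the 36 interferon response genes, 10 class I presentation genes, 11 collecting duct markers and 14 macrophage and leukocyte markers in the 6 groups. Interferon response genes and collecting duct markers are high in the 900 challenges and the 600 culture, class I presentation is highest in the 600 culture, and the leukocyte markers are highest in the 300 culture at 5.81 to 5.89. The 4 panels have different vertical ranges that do not start at 0.

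The drug comparisons ask how each challenge with cyclosporin A differed from the same challenge without it. No unchallenged culture received the drug. A change in the response to a challenge therefore cannot be told apart from an effect of the drug on the cells alone. Whether calcineurin was blocked was not tested. At the 600 challenge, 1 member was lower with the drug than without it and 0 were higher, whereas 0.18% of all features were called lower and 0.229% higher. That member was Ifi47, which read 3.70, 3.40 and 3.58 in the 600 challenge with cyclosporin A, against 4.13, 4.12 and 4.14 in the 600 challenge. The groups did not overlap, and the difference was -0.57 ± 0.07 (SE, adjusted p = 0.00356). In a limma fit of these 6 arrays alone the adjusted p was 0.283, and that fit called 0 of all features. At the 900 challenge 0 members were called, against 0.505% of all features. Unadjusted p-values were under 0.05 in limma for 7 members at the 600 challenge, against 8.49% of all features, and for 11 at the 900 challenge, against 10.6%. The fit of the groups compared likewise called 0 members at the 900 challenge. The difference with the drug was negative in 28 members at the 600 challenge and positive in 30 at the 900 challenge. Its medians were -0.07 and 0.10 over the members and 0.003 and -0.003 over all features. The share of all features with each sign was not counted, and members read on the same arrays are not independent. These counts of signs therefore add no weight to a call.

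Intervals are given next for members that were not called. Each is for 1 gene, is not adjusted for the number of features tested and rests on array-to-array spread alone. An interval can therefore exclude 0 where the gene was not called, and it does not bound an effect over separate cultures. For Mx1 the difference at the 600 challenge was -0.54 with a 95% interval of -1.05 to -0.03, and at the 900 challenge it was 0.04 with an interval of -0.47 to 0.56. For Rsad2 they were 0.05 (-0.25 to 0.34) and 0.33 (0.03 to 0.63), and for Isg15 -0.17 (-0.30 to -0.04) and 0.14 (0.02 to 0.27). Irf7 read 6.16, 6.22 and 6.11 in the 900 challenge with cyclosporin A, against 6.14, 6.02 and 6.14 in the 900 challenge, and those groups overlapped. In 33 of the 36 members the estimated drug differences at both challenges were under 0.35 log units in size, and the other 3 were Ifi47, Mx1 and Oas1b. That bound is descriptive, and the share of all features under it was not counted. Some intervals of the 33 reach past it, as for Ifit3 at the 600 challenge (-0.79 to 0.20) and Ifit1 at the 900 challenge (-0.38 to 0.61). Whether the drug effect differed between the challenges was tested as the effect at 900 minus the effect at 600. It was called in 1 member, Ifi47 (0.67 ± 0.11, adjusted p = 0.0453), and in 0.0459% of all features, 0.0388% higher and 0.00706% lower. Its unadjusted p was under 0.05 in 11 members, against 7.59% of all features. The call of Ifi47 was lost with each of 10 of the 12 arrays left out and in 3 other fits.

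**Figure D5:**
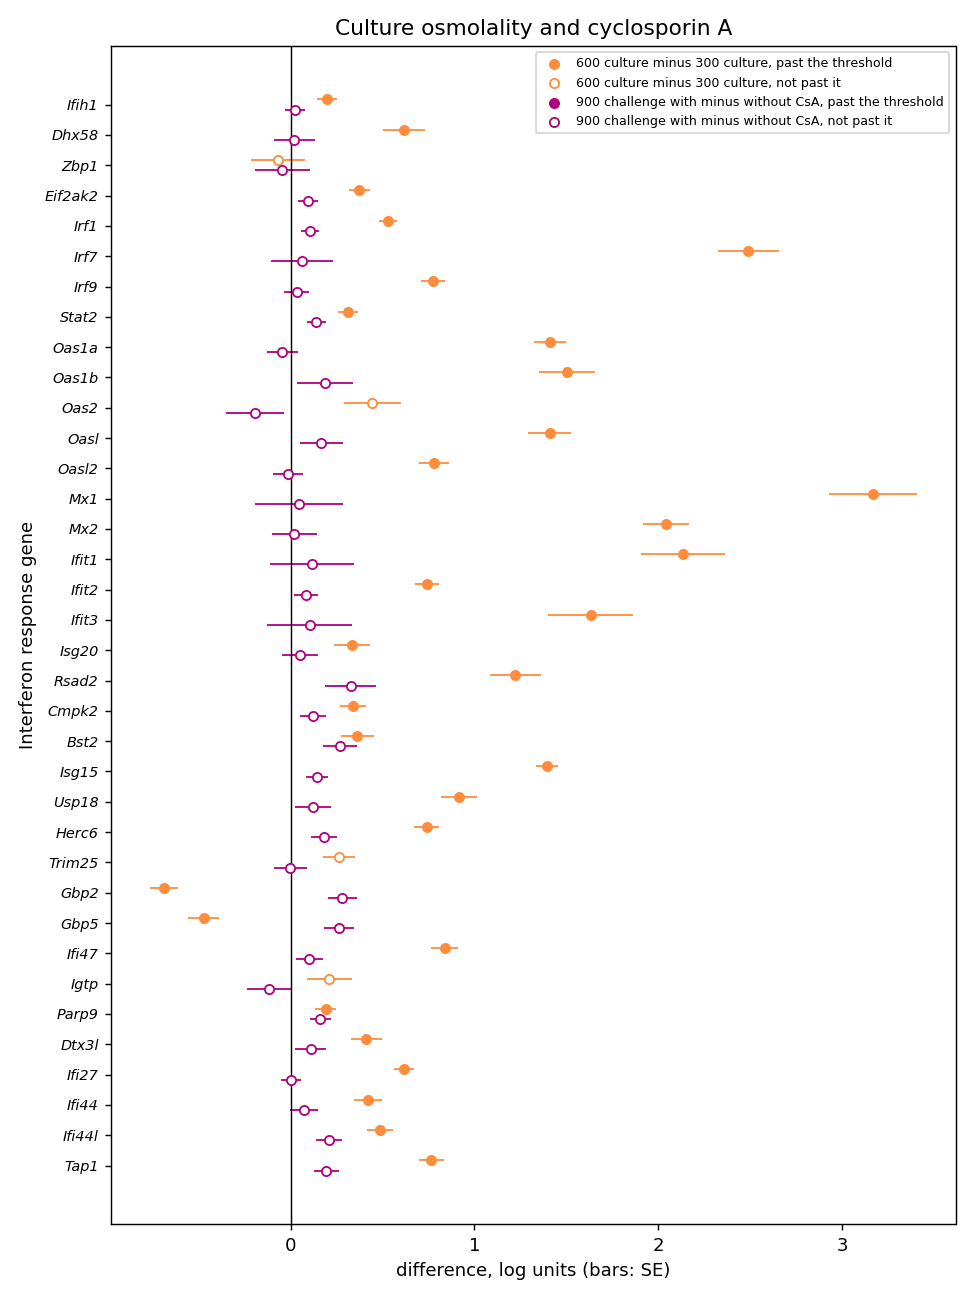
Difference of each interferon response gene in log units, with its SE as a bar, for the 600 culture minus the 300 culture (orange) and for the 900 challenge with minus without cyclosporin A (purple). Filled points passed the threshold in limma. The orange points reach 3.17 at Mx1, and all 36 purple points are open and lie within 0.35 of 0.

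The members were set beside 79 further measured genes of interferon signalling and its targets. In the 600 culture against the 300 culture 24 of these were higher and 14 lower, whereas 8.33% of all features were called higher and 8.84% lower. The interferons Ifnb1, Ifna4, Ifng and Ifnk had levels near or below the lower quartile of the arrays in every group and were not called in any comparison. Ifnb1 averaged 2.48 in the 900 challenge, 2.48 in the 600 challenge, 2.32 in the 600 culture and 2.34 in the 300 culture. The receptor subunits Ifnar1, Ifngr1 and Ifngr2 were lower in the 600 culture than in the 300 culture, with differences of -0.22, -0.34 and -0.29 log units, and Il10rb, shared with interferon lambda, was higher by 0.25. Of 21 signalling and sensor genes 2 were higher and 5 lower, and Irf3, which starts interferon transcription, was the larger of the rises (0.61, adjusted p = 2.83e-05). The largest fall among these 21 genes was -0.86. The single-strand RNA receptor Tlr7 and the factors Irf5 and Irf8 were lower, with differences of -0.77, -0.69 and -0.51.

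Of the 10 class I presentation genes, 8 were higher and 0 lower in the 600 culture. The class I heavy chain RT1-CE5 averaged 5.93 in the 600 culture and 4.93 in the 300 culture (difference 1.00, adjusted p = 6.02e-07). The immunoproteasome subunits Psmb8, Psmb9 and Psmb10 were higher by 0.50, 0.60 and 0.59, and the light chain B2m by 0.19. After the 900 challenge 0 of these 10 were higher and 4 lower, with Psmb10 and the trimming peptidase Erap1 at -0.76 and -0.74. After the 600 challenge 0 were higher and 3 lower. Of 40 other interferon-induced genes, 13 were higher and 6 lower in the 600 culture. The chemokine Cxcl10 averaged 5.90 in the 900 challenge, 4.01 in the 600 challenge, 5.03 in the 600 culture and 3.49 in the 300 culture. It was higher in the 900 challenge than in the 600 culture (0.87, adjusted p = 4.79e-05), and also higher in the 600 challenge than in the 300 culture (0.52, adjusted p = 0.00434). Uba7, the ISG15-activating enzyme, was higher in the 600 than the 300 culture by 1.29 and Tor3a by 0.92. Over all 79 genes, 11 were higher and 15 lower after the 900 challenge, whereas 6.43% of all features were called higher and 11% lower. After the 600 challenge 4 of the 79 were higher and 22 lower, against 6.36% and 8.07% of all features. With cyclosporin A, 1 of the 79 was lower at the 600 challenge, the chemokine Cxcl11 (-0.66, adjusted p = 0.00181), and 1 was higher at the 900 challenge, the cytokine signal inhibitor Socs3 (0.57, adjusted p = 0.0167). Of all features, 0.18% were called lower with the drug at the 600 challenge and 0.357% higher at the 900 challenge.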

How the data were processed

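Total RNA, from a Qiagen RNeasy extraction, was amplified, made into cDNA and biotin-labelled with Affymetrix whole-transcript kits, per the labels' protocols. The deposited values are the authors' log-scale expression values per feature, from 0 to 9.504 over 28328 features; the base, summarisation and normalization are not given in the sources used here, and the values were used as deposited. Gene symbols are those of the platform annotation, in which 15295 features have 1 symbol, 322 several and 12711 none. limma 3.58.1 in R 4.3.3 fitted 6 group means to all 18 arrays with moderated variances (12 residual and 2.03 prior degrees of freedom), and p-values were adjusted by the Benjamini-Hochberg method over all features. The 10 contrasts are the 4 of the series text, the drug at each challenge, the 600 culture against the 300 culture, the 600 challenge against the 600 culture, and 2 differences of effects. Intervals come from the same fit. The fit was tested on simulated data. Every array value is printed for the 4 members with the largest called difference in each of the first 8 contrasts and for Tap1, and others were added for their role. The members and the gene lists were chosen with earlier results of these data known. Alternatives were centred or quantile-normalized arrays, dim features left out, an intensity trend, only the groups compared, a block on the replicate number and each array left out. Source labels of replicate 3 in the 900 challenge with cyclosporin A and in the 900 challenge carry another replicate number than their titles, and the titles were followed.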

Additional observations from a re-analysis of the deposited data

Results flagged for a closer look

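The step to 900 mosmol/kg and the step to 600 mosmol/kg differed in 17 interferon response genes by the limma test of the difference itself, with values as the step to 900 minus the step to 600 in log units. Of all features 7.58% were called, 3.52% positive and 4.06% negative. Dhx58, Irf7, Oas1b, Oas2 and Oasl averaged under the highest lower quartile of the arrays in the 600 challenge. The size of their differences may be limited by the floor. Among sensors and transcription factors it was 1.03 for Dhx58, -0.57 for Irf1, 0.98 for Irf7, 0.53 for Irf9 and 0.35 for Stat2, with adjusted p of 0.00114, 0.000135, 0.021, 0.00355 and 0.01. In the oligoadenylate synthetase family it was 0.68 for Oas1a, 1.08 for Oas1b, 1.00 for Oas2 and 1.31 for Oasl, with adjusted p of 0.00323, 0.00683, 0.0125 and 0.000265. The effectors had 1.15 for Mx2, 0.70 for Ifit2 and 1.10 for Rsad2, with adjusted p of 0.000925, 0.000264 and 0.00315. In the ISG15 system it was 1.28 for Usp18 (adjusted p = 6.26e-05) and -0.45 for Trim25 (adjusted p = 0.0418), and for Trim25 it was no longer past the threshold in several alternatives. The GTPases Gbp5 and Ifi47 had 0.60 and 1.03, with adjusted p of 0.00674 and 4.21e-05, and Ifi27 had 0.33 (adjusted p = 0.0186). With each of the 12 arrays left out in turn, the calls of Irf7 and Ifi27 were lost in 3 fits each.

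The effect of cyclosporin A at the 900 challenge minus its effect at the 600 challenge passed the same test in Ifi47, at 0.67 log units (adjusted p = 0.0453), and in the chemokine gene Cxcl11, at 0.99 (adjusted p = 0.00342). Of all features 0.0459% were called. For Ifi47 the drug differences were 0.10 at the 900 challenge and -0.57 at the 600 challenge, and for Cxcl11 they were 0.33 and -0.66. The call of Ifi47 was lost with each of 10 of the 12 arrays left out and in 3 other fits.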

How the results depend on the processing

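In no alternative did a called member difference change sign, and 54 of 60 counts of called members stayed within 1.5 times the count reported. The exceptions came mostly from fitting only the groups compared, with fewer residual degrees of freedom: the 600 challenge with cyclosporin A against the 300 culture then had 7 members called, the 900 challenge against the 600 culture 12, the drug at the 600 challenge 0 and the difference between the drug effects 0. The difference between the drug effects also had 0 members called with quantile normalization and with the replicate block, where the adjusted p of Ifi47 was 0.0665 and 0.0563 (0.171 with only the groups compared), and the cause was not tested. With each array left out in turn, members called ranged as follows: 6 to 10 for the 600 challenge, 10 to 12 for the 600 challenge with cyclosporin A, 14 to 18 for the 900 challenge, 15 to 18 for the 900 challenge with cyclosporin A, 1 to 1 and 0 to 0 for the drug at the 600 and 900 challenges, 29 to 30 for the culture comparison, 30 to 32 for the 600 challenge against the 600 culture, 14 to 18 for the difference of the steps and 0 to 1 for the difference of the drug effects. Of 143 called member differences over the 10 contrasts, 109 stayed called in every alternative run and 34 were lost in at least 1. Of these 34, 27 were lost with at least 1 array left out and 32 in at least 1 other setting. The differences called in every alternative numbered 6, 7, 11, 15 and 0 for the 600 challenge, the same with the drug, the 900 challenge, the same with the drug and the drug at the 600 challenge, 27 for the culture comparison, 29 for the 600 challenge against the 600 culture, and 14 and 0 for the 2 differences of effects. The titles number the replicates 1 to 3 in every group, but same-numbered arrays did not deviate together: over 45 pairs the correlation of their deviations ran from -0.129 to 0.108 with a median of 0.00851, 1 pair was over 0.1, and 7 of 18 arrays correlated best with their own number. The replicate block gave 9, 13, 18, 19, 1, 0, 32, 30, 16 and 0 members called, with the contrasts in the order of the text: 600 challenge, the same with the drug, 900 challenge, the same with the drug, the drug at each challenge, culture, 600 challenge against 600 culture and the 2 differences of effects. Averaging several features of a gene could not differ, since each member has 1 feature. In the 300 culture 3 members, Zbp1, Oas1b and Oas2, had means under the highest lower quartile of the arrays, so a fall from there may not be measurable. These 3 were also under it in the 600 challenge, as were Irf7, Oasl, Ifit1 and Dhx58, at 2.63, 2.65, 2.65 and 2.65. The size of their falls to the 600 challenge, and the step differences that use them, may therefore be limited by the floor.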

Other observations

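Genes outside the interferon response list that interferon is known to induce, and that the report does not name, followed several courses over the groups. Lgals9, a galectin, averaged 5.76 in the 900 challenge, 3.67 in the 600 challenge, 5.42 in the 600 culture and 4.64 in the 300 culture. It was higher in the 600 than the 300 culture (0.78, adjusted p = 3.28e-06 in limma) and lower in the 600 challenge than in the 300 culture (-0.98, adjusted p = 7.37e-07). The inflammatory caspases Casp1 and Casp4 were lower in the 600 challenge than in the 300 culture, with differences of -0.75 and -0.63 (adjusted p = 4.13e-06 and 0.00015). Casp1 was also lower in the 900 challenge than in the 600 culture (-0.49, adjusted p = 0.000188), where Casp4 differed by -0.08 (adjusted p = 0.635). Ccl2, a monocyte chemokine, was lower in the 600 than the 300 culture (-0.33, adjusted p = 6.02e-05) and higher in the 900 challenge than in the 600 culture (0.37, adjusted p = 2.47e-05). Among the class I genes named by role, the immunoproteasome activator subunit Psme1 was higher in the 600 than the 300 culture (0.30) and lower in the 900 challenge than in the 600 culture (-0.16).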
